A study of Mus musculus with 20 samples.

Results

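The comparison described here is how the loss of Zmym2 altered the change in gene expression when mouse embryonic stem cells (mESCs) became embryoid bodies (EBs), the aggregates in which they begin to differentiate. It rests on 8 RNA-seq libraries of the 20 in the series, chosen because they hold both genotypes of cell line at both stages: 2 Zmym2-/- (KO) EB libraries, 2 non-target (NT) EB libraries, 2 KO mESC libraries and 2 NT mESC libraries. The other 12 are E8.5 whole embryos, 6 Zmym2-/- and 6 wild-type, and are used here only as separate samples in the last comparison. All lines were clones of V6.5, an mESC line from a C57BL/6 x 129 cross, with Zmym2 cut by electroporated Cas9 and guide RNA in the KO lines and non-target lines as controls. The mESCs were grown in serum and leukemia inhibitory factor (LIF) on gelatin (day 0), and the EBs were collected at day 3. With 2 clones of each genotype, the effect of the mutation and the history of the clones cannot be told apart.

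The quantity of interest was the interaction, which is the log2 change on differentiation (EB over mESC) in KO lines minus that in NT lines. A positive interaction means that a gene increased more, or decreased less, in KO lines than in NT lines, and a negative one the reverse. It was fitted with edgeR's quasi-likelihood test on the raw counts of the 18926 genes held by both tables, with the clonal line as a block, and a gene was called higher or lower at a Benjamini-Hochberg adjusted p under 0.05. Levels are CPM, which are read counts scaled to library size and composition without correction for gene length, and are compared only within a gene. In bulk samples fewer cells of a type and less RNA per cell cannot be told apart.

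mESCs in serum and LIF shift between a naive state, held by LIF through STAT3 and by factors such as KLF4, ESRRB and TFCP2L1, and states closer to the implanting epiblast. On differentiation the naive genes are shut down, formative and primed epiblast genes such as Fgf5, Otx2 and Dnmt3b are switched on, and the promoters of many germ cell genes acquire DNA methylation. ZMYM2 is a zinc-finger protein that binds SUMO and associates with the LSD1-CoREST complex and with silencing complexes that include PRC1.6 and TRIM28.

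Library totals ran from 32016880 to 50937945 counts, so that 1 CPM stood for at least 31.7 counts. Zmym2 itself (chromosome 14, 56886653-56962701, plus strand, mm10) had 31.9 and 30.3 CPM in KO EBs and 29.4 and 27.6 CPM in KO mESCs, against 91.2 and 91.7 CPM in NT EBs and 68.1 and 72.0 CPM in NT mESCs. The transcript was lower in every KO library, with a KO over NT difference of -1.56 ± 0.08 on the log2 scale in EBs (adjusted p = 5.3e-07) and -1.30 ± 0.08 in mESCs (adjusted p = 6.8e-07), and its interaction of -0.26 ± 0.11 was not called (adjusted p = 0.14). The mutation is a frameshift in the first coding exon, so the transcript can persist. Pou5f1, the pluripotency factor that the study followed, had 1409 and 1366 CPM in KO EBs and 1761 and 1683 CPM in KO mESCs, against 1487 and 1442 CPM in NT EBs and 1609 and 1668 CPM in NT mESCs. It was abundant in all 8 libraries. Its interaction of -0.15 ± 0.08 was not called (adjusted p = 0.26).

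Differentiation changed many genes in either genotype. In KO lines 4864 genes were higher in EBs than in mESCs (25.7% of those tested) and 4626 were lower (24.4%), and in NT lines 4810 were higher (25.4%) and 4852 lower (25.6%). An axis was drawn from the mean NT mESC (0%) to the mean NT EB (100%) over the 13756 genes that averaged at least 1 CPM. The KO EBs stood at 89.7% and 89.3% and the KO mESCs at 9.48% and 11.1%, against 99.8% and 100.2% for the NT EBs and 1.36% and -1.36% for the NT mESCs. The KO libraries covered a shorter stretch of this axis, starting nearer to the NT EBs and stopping short of them. These positions are a description, since the NT libraries set the axis.

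The interaction was called for 2325 genes, 1299 of them higher (6.86% of the genes tested) and 1026 lower (5.42%). At a fold of at least 2 as well, 371 were higher and 337 lower. Of the higher genes 541 had a negative fitted change in KO lines and 965 in NT lines, and their median change was 0.15 in KO lines and -0.55 in NT lines. Of the lower genes 503 had a positive fitted change in KO lines and 769 in NT lines, and their median change was -0.02 in KO lines and 0.62 in NT lines. For 94 of the higher and 65 of the lower genes both stage changes were called, in opposite directions. The counts depended on single lines: without NT line 2 they were 786 higher and 580 lower, and without KO line 1 they were 772 higher and 637 lower. Next to the threshold, Bbx was the last gene called higher (0.43, edgeR adjusted p = 0.04998). On the lower side Eny2 was the last gene called (-0.31, adjusted p = 0.04997) and Thap1 the first not called (-0.42, adjusted p = 0.05008).

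**Figure D1:**
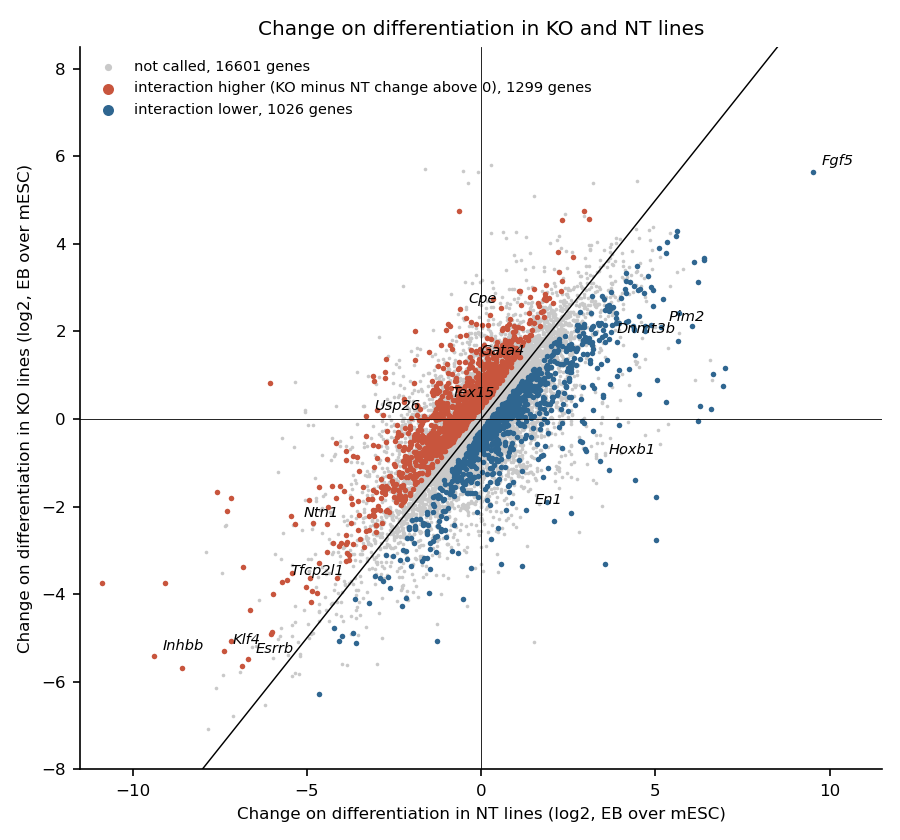
Change on differentiation (log2, EB over mESC) in KO lines on the vertical axis and in NT lines on the horizontal axis, 1 point a gene, with the line of equal change drawn. The 1299 genes with a higher interaction lie above the line and the 1026 with a lower interaction below it, and uncalled genes are grey.

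The interaction is also the genotype difference in EBs minus that in mESCs, so each called gene was read at both stages. KO EBs differed from NT EBs at 664 genes with higher expression (3.51%) and 291 with lower expression (1.54%). KO mESCs differed from NT mESCs at 2391 genes with higher expression (12.6%) and 2379 with lower expression (12.6%). These counts share 1 estimate of the spread over the 8 libraries. With the 4 libraries of each stage fitted alone they were 928 higher and 535 lower in EBs, and 1941 higher and 1696 lower in mESCs. The fitted genotype difference was larger in mESCs than in EBs for 1927 of the 2325 called genes (82.9%), beside 12344 of all 18926 genes (65.2%). Among the 1299 higher genes the median KO over NT difference was 0.06 in EBs and -0.58 in mESCs, and among the 1026 lower genes it was -0.06 in EBs and 0.60 in mESCs. For most called genes the genotypes thus stood apart before differentiation and closer together at day 3. The remaining 253 higher and 145 lower genes stood further apart in EBs.

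**Figure D2:**
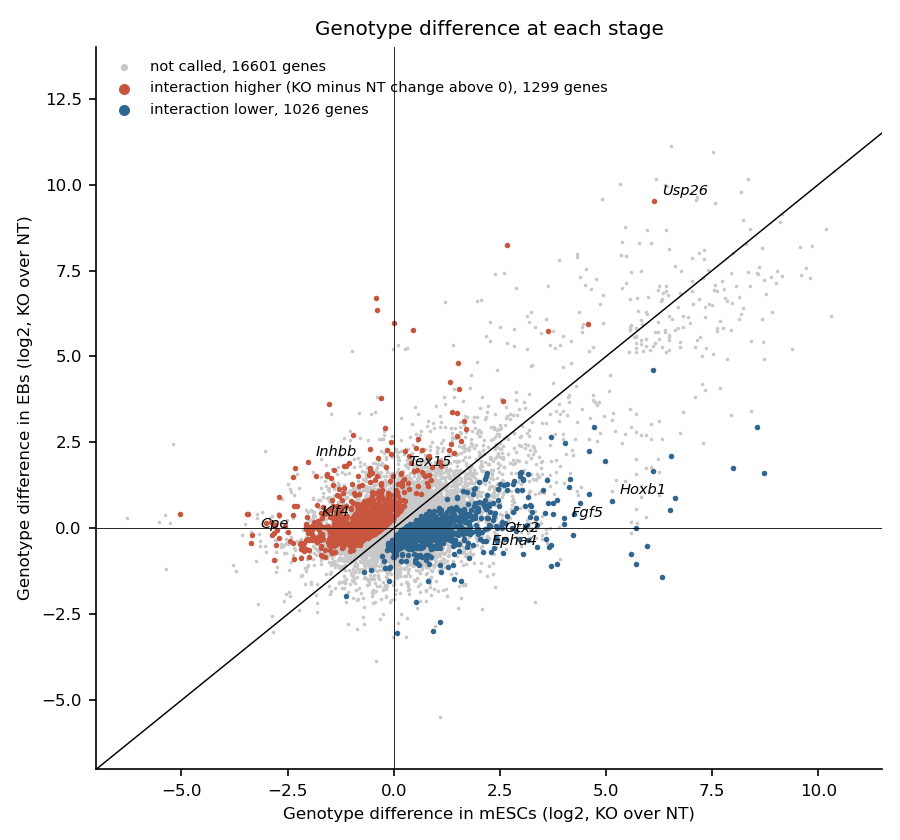
Genotype difference (log2, KO over NT) in EBs on the vertical axis and in mESCs on the horizontal axis, 1 point a gene, with the line of equal difference drawn. Labelled genes with a lower interaction lie to the right of 0 in mESCs (Fgf5 at 4.00, Otx2 at 2.42). Labelled genes with a higher interaction lie to the left of 0 (Cpe at -3.33, Klf4 at -1.88) or above 0 in EBs (Tex15 at 1.62).

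Formative and primed epiblast genes were mostly called lower. Of 24 such genes, all tested, 19 were lower and 1, Etv4, was higher, beside 5.42% lower and 6.86% higher over all genes, and their median interaction was -1.10 beside 0.02 over all genes. There were 14 lower without the replicate block, 14 with DESeq2 and 11 with limma on log2(RPKM + 0.1). The median change of the 24 genes was 1.36 in KO lines and 2.10 in NT lines. In mESCs 20 of the 24 were already higher in KO lines, beside 12.6% over all genes, with a median difference of 0.99. In EBs 1 was higher and 2 were lower, beside 3.51% and 1.54% over all genes, with a median difference of -0.12.

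Fgf5, a growth factor of the formative and primed epiblast (chromosome 5, 98254184-98277030, plus strand), had 173 and 184 CPM in KO EBs and 3.34 and 3.75 CPM in KO mESCs, against 158 and 165 CPM in NT EBs and 0.343 and 0.0558 CPM in NT mESCs. Both KO mESC libraries were above both NT mESC libraries, whereas the EB libraries lay close together. Fgf5 rose by 5.65 on the log2 scale in KO lines and by 9.52 in NT lines, an interaction of -3.86 ± 0.29 (SE, edgeR adjusted p = 5.6e-13). On leaving out 1 line at a time it ran from -5.776 to -3.185, and the NT mESC libraries together held 18 counts. Otx2, a homeobox factor of the exit from the naive state (chromosome 14, 48657677-48673819, minus strand), had 122 and 131 CPM in KO EBs and 28.1 and 34.7 CPM in KO mESCs, against 141 and 168 CPM in NT EBs and 6.05 and 5.66 CPM in NT mESCs. Its interaction was -2.69 ± 0.13 (edgeR adjusted p = 9.1e-19), and its KO over NT difference in EBs was -0.29 ± 0.10 (adjusted p = 0.14), which did not pass the test.

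Pim2, a serine/threonine kinase (chromosome X, 7878262-7883432, plus strand), had the smallest p of all genes. Its level was 1005 and 1122 CPM in KO EBs and 222 and 278 CPM in KO mESCs, against 996 and 973 CPM in NT EBs and 34.8 and 21.7 CPM in NT mESCs, an interaction of -3.05 ± 0.12 (edgeR adjusted p = 1.5e-21). The de novo DNA methyltransferase Dnmt3b had 2296 and 2430 CPM in KO EBs and 569.9 and 784 CPM in KO mESCs, against 2550 and 2642 CPM in NT EBs and 245 and 173 CPM in NT mESCs (interaction -1.83 ± 0.11, edgeR adjusted p = 2.9e-15). Like Fgf5 and Pim2 it rose in both genotypes, from a higher start in KO mESCs. Dnmt3a, its paralogue, had 357 and 402 CPM in KO EBs and 301 and 405 CPM in KO mESCs, against 448 and 477 CPM in NT EBs and 204 and 149 CPM in NT mESCs, an interaction of -1.29 ± 0.11. Its change of 0.12 in KO lines did not pass the test, and it rose by 1.40 in NT lines. Dnmt3l, their catalytically inactive partner, fell in both genotypes, by 2.40 in KO lines and 1.61 in NT lines. Its interaction was -0.79 ± 0.12, or -0.44 without NT line 2, and the call was lost without the replicate block and with DESeq2.

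The zinc-finger factor Zic2 (-2.27 ± 0.15) and the POU factor Pou3f1 (-1.68 ± 0.13, chosen after its values were seen) belonged to the same group, with KO over NT differences of 2.21 and 1.67 in mESCs. Fgf15, a growth factor and ERK feedback gene, had an interaction of -1.46 ± 0.14. Outside the list, the protocadherin Pcdh8 (-3.24), the lysophospholipase D Enpp2 (-2.73), Vrtn (-2.34) and the imprinted gene Magel2 (-2.54) were among the largest lower interactions or those of smallest p, and their differences in EBs lay between -0.37 and 0.08. Pdlim3, a PDZ and LIM domain protein, stayed apart at day 3, with 41.8 and 36.4 CPM in KO EBs, against 15.98 and 12.9 CPM in NT EBs (interaction -2.74 ± 0.25).

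**Figure D3:**
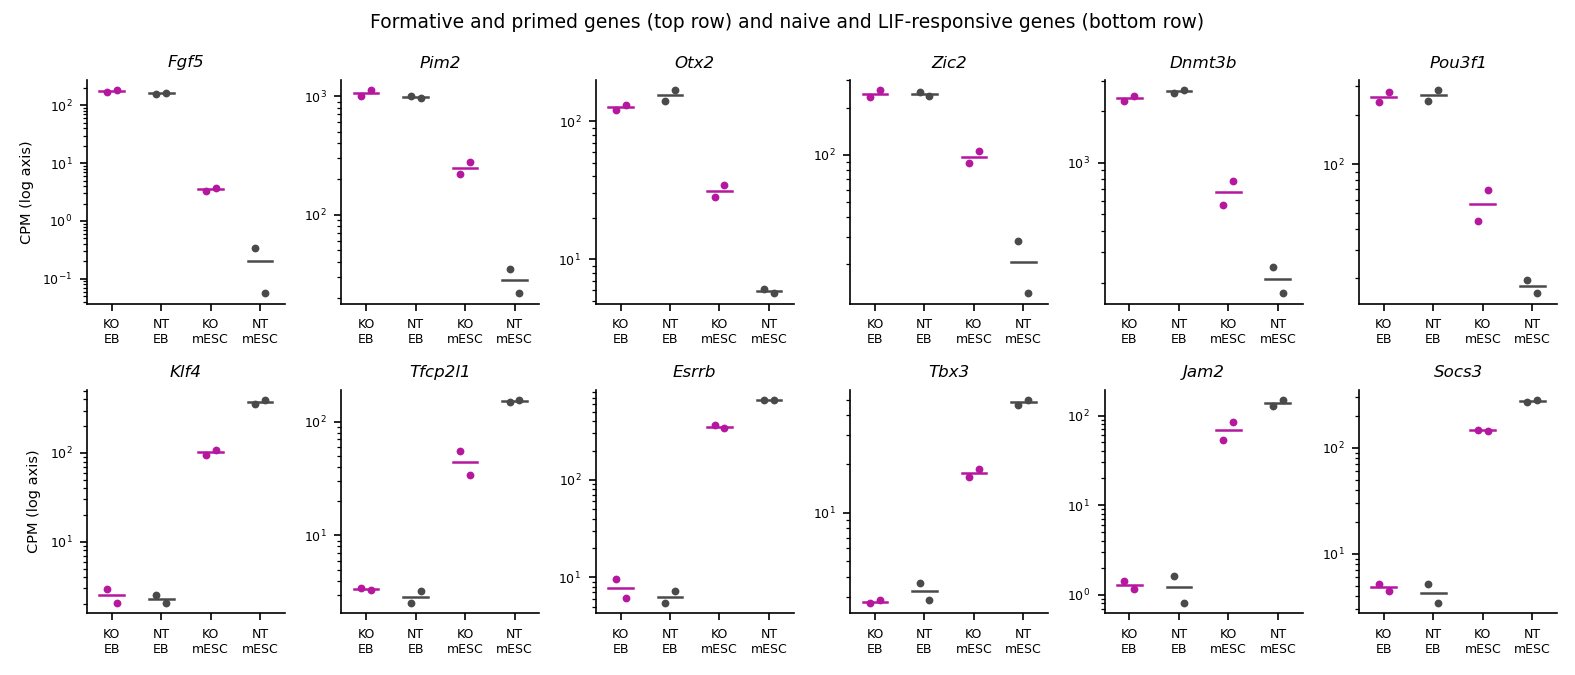
CPM on a log axis in each of the 8 libraries (points, with the mean of the 2 lines as a line) for 6 formative and primed genes (top) and 6 naive or LIF-responsive genes (bottom), in the order KO EB, NT EB, KO mESC, NT mESC. In every top panel both KO mESC points lie above both NT mESC points (Fgf5 at 3.34 and 3.75 against 0.343 and 0.0558 CPM). In the bottom row both KO mESC points are lower than both NT mESC points (Klf4 at 94.9 and 108 against 353 and 395 CPM).

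Naive pluripotency genes were called higher more often than lower, with exceptions. Of 19 naive genes 10 were higher and 2 lower, beside 6.86% and 5.42% over all genes. There were 7 higher without the replicate block, 6 with DESeq2 and 4 with limma on log2(RPKM + 0.1). The median interaction of the list was 0.70, with a median change of -3.72 in KO lines and -4.004 in NT lines. In mESCs 4 of the 19 were higher in KO lines and 9 lower, beside 12.6% in either direction over all genes. Klf4, a naive factor activated by LIF (chromosome 4, 55527143-55532466, minus strand), had 2.96 and 2.06 CPM in KO EBs and 94.9 and 108 CPM in KO mESCs, against 2.50 and 2.04 CPM in NT EBs and 353 and 395 CPM in NT mESCs. The EB libraries overlapped and the mESC libraries did not, and the interaction was 2.08 ± 0.19 (edgeR adjusted p = 1.2e-10). Tfcp2l1 (2.00 ± 0.18) and Esrrb (1.22 ± 0.14), transcription factors of the naive state, had KO over NT differences of -1.78 and -0.91 in mESCs. Tbx3 (1.25 ± 0.20) and the adhesion gene Jam2 (1.22 ± 0.28), chosen after their values were seen, had -1.45 and -1.01, and the Jam2 call was lost without NT line 2, without KO line 1 (0.67 to 1.90 over the 4 omissions) or without the replicate block.

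Other naive genes took other courses. Zfp42 (REX1), chosen after its values were seen, had 43.7 and 39.9 CPM in KO EBs and 371 and 349.8 CPM in KO mESCs, against 24.5 and 28.1 CPM in NT EBs and 364 and 373 CPM in NT mESCs (interaction 0.70 ± 0.10). It opened a gap in EBs instead of closing one. Nr0b1, chosen likewise, had 3.98 and 3.70 CPM in KO EBs, against 7.24 and 9.87 CPM in NT EBs, and an interaction of -0.96 ± 0.15. Manba, a lysosomal mannosidase on the naive list, had 7.63 and 7.38 CPM in KO EBs and 153 and 138 CPM in KO mESCs, against 9.45 and 9.61 CPM in NT EBs and 43.0 and 49.1 CPM in NT mESCs (interaction -2.01 ± 0.13, edgeR adjusted p = 2.4e-14), and so fell further in KO lines from a higher start. Nanog (0.26 ± 0.15, adjusted p = 0.3), Klf5 (-0.11 ± 0.12, adjusted p = 0.65) and Nr5a2 (-0.04 ± 0.17, adjusted p = 0.93), also chosen after their values were seen, were not called. Prdm14, a naive and germ cell factor, had 11.2 and 9.96 CPM in KO mESCs, against 21.6 and 24.3 CPM in NT mESCs, and an interaction of 2.91 ± 0.69 that was lost without KO line 1 (2.17, adjusted p = 0.24).

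Among 18 tested LIF and STAT3 targets 7 were called higher and 4 lower, beside 6.86% higher and 5.42% lower over all genes, with a median interaction of 0.00. Without KO line 1 there were 4 higher, and without the replicate block 1 lower. Socs3, the feedback inhibitor of LIF signalling, had 5.22 and 4.44 CPM in KO EBs and 148 and 143 CPM in KO mESCs, against 5.16 and 3.43 CPM in NT EBs and 272 and 282 CPM in NT mESCs (interaction 1.12 ± 0.15, edgeR adjusted p = 1.3e-06). Gbx2, a homeobox target of STAT3, had an interaction of 1.04 ± 0.16. Egr1, an immediate early gene, was called lower (-0.87 ± 0.16), or -0.46 without NT line 2, and lost that call without the replicate block and with DESeq2. Of 24 FGF and ERK feedback genes 3 were higher and 9 lower, beside 6.86% higher and 5.42% lower over all genes, with 4 lower without NT line 2 and 3 lower without the replicate block. The phosphatase Dusp1 (1.28 ± 0.14) and the ETS factor Etv4 (0.76 ± 0.10) were on the higher side.

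Several of the largest higher interactions lay in other genes that were low in KO mESCs. Inhbb, the beta B subunit of activin (chromosome 1, 119415465-119422248, minus strand), had 0.580 and 0.368 CPM in KO EBs and 20.9 and 21.6 CPM in KO mESCs, against 0.238 and 0.0268 CPM in NT EBs and 82.8 and 90.7 CPM in NT mESCs (interaction 3.95 ± 0.48, edgeR adjusted p = 1.2e-07). Without NT line 1, whose EB library was above that of NT line 2, the interaction was 6.15, the highest over the 4 omissions. The lowest was 2.99, and the NT EB libraries together held 9 counts. Cpe, carboxypeptidase E (chromosome 8, 64592542-64693054, minus strand), had 29.1 and 29.2 CPM in KO EBs and 5.05 and 5.20 CPM in KO mESCs, against 32.7 and 33.3 CPM in NT EBs and 39.2 and 64.4 CPM in NT mESCs (interaction 3.12 ± 0.17, edgeR adjusted p = 5.8e-17). Cpe rose in KO lines and fell in NT lines, and the EB libraries lay close together. Cobl, an actin nucleator, had 14.7 and 17.1 CPM in KO EBs and 52.7 and 57.2 CPM in KO mESCs, against 17.6 and 16.4 CPM in NT EBs and 270.2 and 345 CPM in NT mESCs (interaction 2.37 ± 0.12). Igsf21 (3.64) and Insyn1 (2.91) had KO over NT differences in mESCs of -2.69 and -2.28. Ntn1, the guidance cue netrin-1, crossed over: it had 9.03 and 11.9 CPM in KO EBs and 57.8 and 50.7 CPM in KO mESCs, against 5.01 and 2.58 CPM in NT EBs and 160.4 and 139 CPM in NT mESCs, an interaction of 2.94 ± 0.17 (edgeR adjusted p = 9.5e-16).

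Basement membrane and extraembryonic endoderm genes gave further higher interactions. Of 25 tested basement membrane and matrix genes 11 were called higher and 1 lower (median interaction 0.35), beside 6.86% higher and 5.42% lower over all genes. Without KO line 1 there were 7 higher, and the lower call was lost on leaving out any 1 line. Of 23 primitive and visceral endoderm genes, a list that shares members with it, 9 were higher and 2 lower. Without the replicate block 5 were higher, and on leaving out 1 line at most 1 was lower. Col4a1, a collagen IV chain (chromosome 8, 11198423-11312826, minus strand), had 75.7 and 75.8 CPM in KO EBs and 17.5 and 19.3 CPM in KO mESCs, against 99.1 and 82.8 CPM in NT EBs and 82.0 and 44.1 CPM in NT mESCs (interaction 1.46 ± 0.14, edgeR adjusted p = 2.4e-10). Col4a2, the adjacent chain gene, had an interaction of 1.59 ± 0.17, and Hspg2, the proteoglycan perlecan, one of 0.95 ± 0.09. In all 3 genes both KO mESC libraries were below both NT mESC libraries, and the KO over NT differences in EBs were between -0.48 and 0.01. The summed level of the 23 endoderm genes was 871 and 875 CPM in KO EBs and 1215 and 1166 CPM in KO mESCs, against 973 and 897 CPM in NT EBs and 1480 and 1358 CPM in NT mESCs.

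The endoderm factor Gata4 had 4.00 and 6.70 CPM in KO EBs and 1.45 and 2.93 CPM in KO mESCs, against 2.53 and 1.15 CPM in NT EBs and 2.85 and 1.51 CPM in NT mESCs (interaction 1.57 ± 0.33, adjusted p = 8.1e-04), a call lost without the replicate block. Its mESC libraries overlapped and its EB libraries did not. Gata6, an endoderm factor that the study followed, had 0.425 and 0.283 CPM in KO EBs and 0.207 and 0.347 CPM in KO mESCs, against 0.537 and 0.268 CPM in NT EBs and 2.83 and 1.06 CPM in NT mESCs. Its interaction of 2.62 ± 0.68 (adjusted p = 0.0067) was lost without KO line 1 (1.94, adjusted p = 0.22) or NT line 1 (2.38, adjusted p = 0.10), and without the replicate block. Fst, the activin antagonist follistatin, had 55.4 and 61.4 CPM in KO EBs, against 34.5 and 25.9 CPM in NT EBs, and an interaction of 1.47 ± 0.20. Krt18, an epithelial keratin that the study followed, had 55.9 and 56.8 CPM in KO EBs and 15.9 and 19.3 CPM in KO mESCs, against 72.8 and 52.0 CPM in NT EBs and 13.3 and 13.7 CPM in NT mESCs, with an interaction of -0.51 ± 0.14 (adjusted p = 0.013) that was lost without KO line 2 (-0.38), NT line 1 (-0.22) or the replicate block.

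Of 22 tested streak and early mesoderm genes 7 were called higher and 2 lower, beside 6.86% higher and 5.42% lower over all genes, or 3 higher and 1 lower without the replicate block, with a median change of 1.41 in KO lines and 1.12 in NT lines. Brachyury (T), the streak marker that the study followed, had 5.53 and 4.61 CPM in KO EBs and 0.148 and 0.284 CPM in KO mESCs, against 3.94 and 1.88 CPM in NT EBs and 0.708 and 0.447 CPM in NT mESCs (interaction 2.23 ± 0.52, adjusted p = 0.0023), and the call was lost without KO line 1 (1.70, adjusted p = 0.11) or without the replicate block. Eomes, a T-box factor of the streak, had 40.5 and 45.9 CPM in KO EBs and 7.001 and 6.68 CPM in KO mESCs, against 38.4 and 23.2 CPM in NT EBs and 8.82 and 10.9 CPM in NT mESCs, an interaction of 1.03 ± 0.20. It was no longer called without NT line 2 (0.53), without the replicate block or with DESeq2, and was 1.59 without NT line 1. Axin2, a feedback gene of Wnt signalling, had 42.0 and 38.3 CPM in KO EBs and 11.9 and 13.6 CPM in KO mESCs, against 23.1 and 19.9 CPM in NT EBs and 16.6 and 15.4 CPM in NT mESCs (interaction 1.24 ± 0.15, edgeR adjusted p = 9.4e-08). The Wnt targets Sp5 (1.95 ± 0.31) and Cdx1 (3.19 ± 0.45) had changes of 0.56 and 0.20 in KO lines, of which that of Cdx1 did not pass the test, and fell by 1.39 and 2.99 in NT lines. The Sp5 interaction was not called without the replicate block. Over the 24 Wnt targets 5 were higher and 2 lower, beside 6.86% higher and 5.42% lower over all genes, and the lower share was near that over all genes. There were 3 higher without KO line 1, 2 higher without the replicate block, and 1 lower on leaving out any line but NT line 1.

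Hox and neural genes were called lower more often than higher. Of 27 tested Hox genes 7 were lower and 1 was higher (0 higher without NT line 2 or KO line 1), beside 5.42% and 6.86% over all genes, and all 7 lower genes lie in the Hoxb cluster, of which 10 genes were tested. The summed level of Hoxb1 to Hoxb5, genes of the anterior part of the cluster, was 7.50 and 9.98 CPM in KO EBs and 10.8 and 16.5 CPM in KO mESCs, against 10.1 and 6.01 CPM in NT EBs and 0.901 and 0.726 CPM in NT mESCs. Both KO mESC libraries lay above all 4 EB libraries, and both NT mESC libraries lay below them. Hoxb1 (-4.36 ± 0.51) and Hoxb4 (-3.65 ± 0.51) fell in KO lines and rose in NT lines.

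Of 20 neural plate genes 6 were called lower and 1 higher, beside 5.42% and 6.86% over all genes. The homeobox gene En1 had 1.55 and 1.89 CPM in KO EBs and 6.35 and 8.35 CPM in KO mESCs, against 1.70 and 1.48 CPM in NT EBs and 1.09 and 0.251 CPM in NT mESCs (interaction -3.37 ± 0.41, edgeR adjusted p = 8.8e-08). Pax6, a neural and eye field factor, had 7.75 and 7.01 CPM in KO EBs and 28.8 and 18.7 CPM in KO mESCs, against 8.08 and 6.49 CPM in NT EBs and 5.67 and 2.96 CPM in NT mESCs (interaction -2.46 ± 0.22). The ephrin receptor gene Epha4, not on the list, had 5.29 and 4.92 CPM in KO EBs and 21.1 and 22.2 CPM in KO mESCs, against 7.96 and 8.40 CPM in NT EBs and 5.28 and 4.77 CPM in NT mESCs (interaction -2.78 ± 0.20, edgeR adjusted p = 4.1e-13). All 3 genes fell in KO lines and rose in NT lines. Nes, the neural progenitor filament nestin, rose in both, by 1.63 in KO lines and 2.63 in NT lines.

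**Figure D4:**
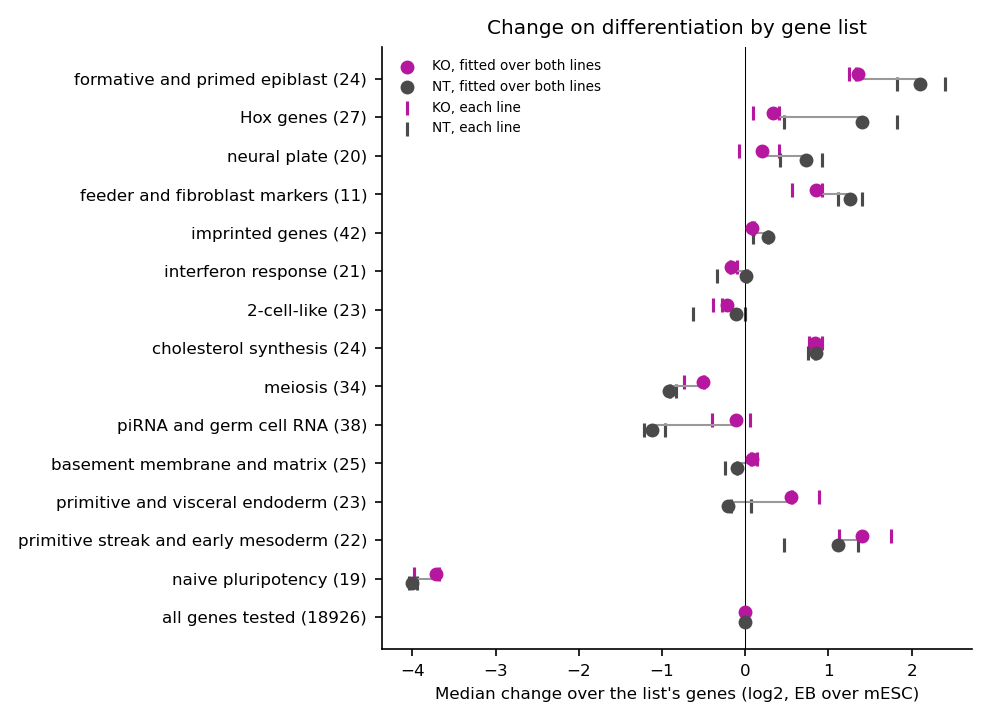
Median change on differentiation over the genes of each list (log2, EB over mESC), with the number of genes tested in parentheses, fitted over both KO lines and over both NT lines (large points) and in each line (ticks). At the top are lists whose KO median lies below the NT median, such as formative and primed epiblast (1.36 in KO and 2.10 in NT lines), and further down are lists where it lies above, such as piRNA and germ cell RNA (-0.12 in KO and -1.12 in NT lines).

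Germ cell genes were called higher more often than lower. Of 34 tested meiosis genes 7 were called higher, and of 38 piRNA and germ cell RNA genes 7 were called higher and 1 lower, beside 6.86% and 5.42% over all genes. Without the replicate block 5 meiosis and 5 piRNA list genes were higher, and with DESeq2 also 5 and 5. With limma on log2(RPKM + 0.1) 3 and 2 were higher. The 1 lower gene was Rnf17 (-0.41), chosen after its values were seen, whose call was lost on leaving out any 1 of the 4 lines. The median change of the piRNA and germ cell RNA list was -0.12 in KO lines and -1.12 in NT lines, and its median KO over NT difference was 0.77 in EBs and 0.52 in mESCs. For the meiosis list these medians were -0.50 and -0.92, and 0.72 and 0.35.

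The promoters of 3 of these genes, and of 1 gene of an adjacent pair that moved with them, are shown because PRC1.6 contains proteins of families that bind an E-box (CACGTG) and an E2F-type site (TCCCGC). Each is a RefSeq promoter window of 300 bases on build GRCm38.p6, running 5′ to 3′ on the gene's strand from 250 bases before its start, with these letters on either strand in capitals. The windows are chr13:112652261-112652560 on the minus strand for Ddx4, chr15:88982744-88983043 on the plus strand for Mov10l1, chr6:82946672-82946971 on the plus strand for M1ap and chrX:101794406-101794705 on the plus strand for 8030474K03Rik.
Ddx4: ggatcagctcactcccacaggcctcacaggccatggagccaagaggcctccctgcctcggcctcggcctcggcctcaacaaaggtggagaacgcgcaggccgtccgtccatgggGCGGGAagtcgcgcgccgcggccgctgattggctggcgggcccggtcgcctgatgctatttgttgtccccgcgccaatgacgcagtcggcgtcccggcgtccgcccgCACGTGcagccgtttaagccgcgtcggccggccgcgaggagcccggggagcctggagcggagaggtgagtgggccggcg
Mov10l1: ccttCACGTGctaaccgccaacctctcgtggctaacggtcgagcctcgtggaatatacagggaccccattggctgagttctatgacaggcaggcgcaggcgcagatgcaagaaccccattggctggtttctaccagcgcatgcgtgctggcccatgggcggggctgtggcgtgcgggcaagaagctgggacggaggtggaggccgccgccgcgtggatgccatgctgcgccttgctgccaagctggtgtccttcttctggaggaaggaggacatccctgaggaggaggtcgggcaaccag
M1ap: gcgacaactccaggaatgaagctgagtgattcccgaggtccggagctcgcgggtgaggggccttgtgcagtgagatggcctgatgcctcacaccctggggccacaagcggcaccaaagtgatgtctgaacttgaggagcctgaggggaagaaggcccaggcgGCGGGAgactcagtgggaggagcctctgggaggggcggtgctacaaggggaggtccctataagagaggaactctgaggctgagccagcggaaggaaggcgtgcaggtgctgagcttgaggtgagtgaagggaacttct
8030474K03Rik: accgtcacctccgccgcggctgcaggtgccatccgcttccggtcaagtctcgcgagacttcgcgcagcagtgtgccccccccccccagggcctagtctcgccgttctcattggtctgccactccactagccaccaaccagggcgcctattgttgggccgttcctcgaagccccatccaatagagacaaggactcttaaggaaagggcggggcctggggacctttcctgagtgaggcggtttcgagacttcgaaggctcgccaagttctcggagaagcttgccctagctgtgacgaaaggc

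Of the 14 germ cell genes called higher 11 had a window. The E-box letters occurred in 3 of the 11 and the E2F-type letters in 5. Over the 27025 genes with a window the shares were 8.09% and 22.0%, and over the 12462 tested genes matched to a window they were 11.4% and 38.7%. Over all 60 germ cell genes with a window, called or not, 21 held the E-box letters and 27 the E2F-type letters. Among the printed windows Ddx4 held both motifs, Mov10l1 the E-box, M1ap the E2F-type letters and 8030474K03Rik neither. A match of letters is a description and not a bound site.

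Tex15, which acts in piRNA-directed silencing and meiosis in male germ cells (chromosome 8, 33516738-33585582, plus strand), had 25.6 and 27.7 CPM in KO EBs and 19.9 and 21.4 CPM in KO mESCs, against 7.57 and 9.69 CPM in NT EBs and 18.3 and 18.6 CPM in NT mESCs. It rose by 0.37 in KO lines and fell by 1.101 in NT lines. The KO over NT difference was 1.62 ± 0.13 in EBs (adjusted p = 2.0e-05) and 0.16 ± 0.12 in mESCs (adjusted p = 0.37). The NT EB libraries stood apart from the other 6, and the interaction was 1.47 ± 0.16 (edgeR adjusted p = 7.2e-09). M1ap, a gene of male meiosis (chromosome 6, 82946902-83030309, plus strand), had 4.77 and 5.51 CPM in KO EBs and 5.91 and 6.02 CPM in KO mESCs, against 1.19 and 0.832 CPM in NT EBs and 3.99 and 4.30 CPM in NT mESCs (interaction 1.82 ± 0.31, edgeR adjusted p = 4.1e-05). It was also lowest in NT EBs.

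Mov10l1, a helicase of piRNA biogenesis (chromosome 15, 88982909-89055152, plus strand), had 9.41 and 9.98 CPM in KO EBs and 9.01 and 9.27 CPM in KO mESCs, against 5.10 and 4.35 CPM in NT EBs and 12.8 and 11.7 CPM in NT mESCs (interaction 1.46 ± 0.20, edgeR adjusted p = 1.5e-06). Ddx4, the germ cell helicase VASA (chromosome 13, 112598333-112652475, minus strand), had 23.8 and 25.1 CPM in KO EBs and 20.9 and 19.3 CPM in KO mESCs, against 19.2 and 18.4 CPM in NT EBs and 30.7 and 37.2 CPM in NT mESCs (interaction 1.13 ± 0.15, edgeR adjusted p = 4.0e-07). For both genes the KO libraries lay above the NT libraries in EBs and below them in mESCs, without overlap. The KO over NT difference of Ddx4 in EBs was 0.38 ± 0.11 and did not pass the test (edgeR adjusted p = 0.077). The Argonaute-family gene Piwil2 (1.04 ± 0.18) and Tex19.1 (0.85 ± 0.15) fell in both genotypes, less so in KO lines, and the Tex19.1 call was lost without the replicate block. Rec8, the meiotic cohesin, had an interaction of 0.82 ± 0.15. Its change of 0.06 in KO lines did not pass the test, and it fell by 0.76 in NT lines. Stra8, a gene of meiotic entry, had 0.715 and 0.622 CPM in KO EBs and 11.4 and 17.7 CPM in KO mESCs, against 0.0894 and 0.322 CPM in NT EBs and 23.6 and 19.11 CPM in NT mESCs (interaction 2.26 ± 0.45). Over the 4 omissions this ran from 1.54 to 3.63, the latter without NT line 2, and the call was lost with DESeq2 and limma. Dazl, a germ cell RNA-binding protein chosen after its values were seen, had 4.35 and 3.65 CPM in KO EBs, against 1.31 and 1.18 CPM in NT EBs, and its call (1.12 ± 0.31) was lost without NT line 2 or KO line 1.

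8030474K03Rik and Gm4779 start 211 bases apart on opposite strands of chromosome X. 8030474K03Rik had 8.001 and 7.72 CPM in KO EBs and 6.53 and 8.89 CPM in KO mESCs, against 2.24 and 2.01 CPM in NT EBs and 5.97 and 5.55 CPM in NT mESCs (interaction 1.49 ± 0.25, edgeR adjusted p = 4.8e-05). Gm4779 had 13.0 and 12.04 CPM in KO EBs and 10.8 and 13.1 CPM in KO mESCs, against 3.25 and 2.60 CPM in NT EBs and 10.4 and 8.06 CPM in NT mESCs (interaction 1.73 ± 0.21, edgeR adjusted p = 1.4e-07). Both genes of the pair were lowest in NT EBs. The libraries were made with a stranded kit but the strand setting of the counting is not given in the sources used here, so whether they share reads is uncertain.

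**Figure D5:**
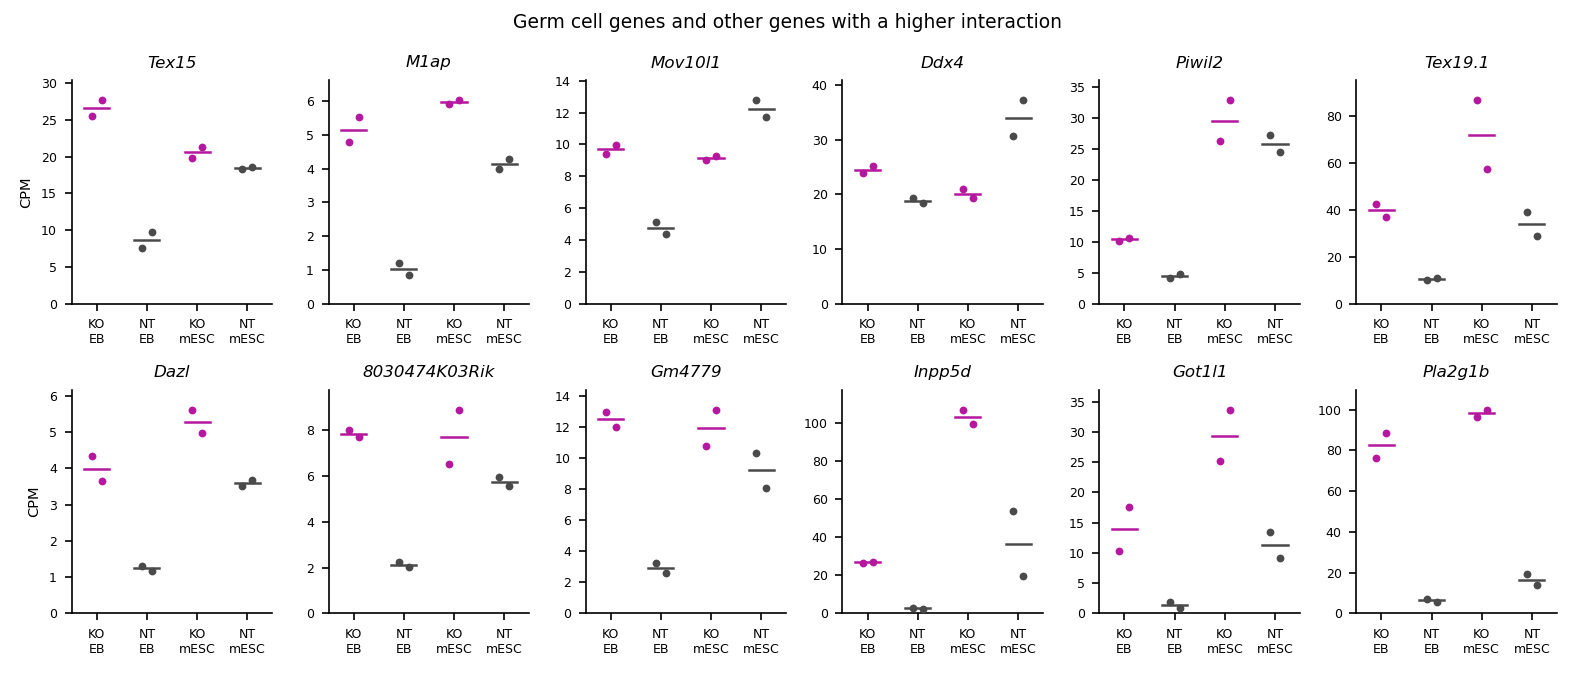
CPM on a linear axis from 0 in each of the 8 libraries (points, with the mean of the 2 lines as a line) for germ cell genes, the 8030474K03Rik and Gm4779 pair and other genes with a higher interaction, in the order KO EB, NT EB, KO mESC, NT mESC. In every panel both NT EB points are below the points of the other 3 groups, as for Tex15 (7.57 and 9.69 CPM) and M1ap (1.19 and 0.832 CPM).

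Further genes that the study followed were higher in KO lines at both stages. Mael, a piRNA factor, had 10.9 and 14.9 CPM in KO EBs and 19.8 and 25.8 CPM in KO mESCs, against 7.42 and 5.85 CPM in NT EBs and 9.23 and 9.12 CPM in NT mESCs (interaction -0.35 ± 0.18, adjusted p = 0.24). Hormad1, a meiotic chromosome axis protein, had an interaction of -0.28 ± 0.37 (adjusted p = 0.72), with KO over NT differences of 2.19 in EBs and 2.47 in mESCs. Clca3b, which the study described as spliced from an L1MdT element, had one of -0.15 ± 0.36 (adjusted p = 0.86), with differences of 2.34 and 2.49. Sohlh2, a germ cell transcription factor, had 10.2 and 8.23 CPM in KO EBs and 14.9 and 10.3 CPM in KO mESCs, against 2.12 and 1.69 CPM in NT EBs and 6.46 and 3.71 CPM in NT mESCs (interaction 0.95 ± 0.24, adjusted p = 0.0059), and its call was lost without KO line 2 (0.85, adjusted p = 0.051), without NT line 1 (0.71, adjusted p = 0.16) or without the replicate block.

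The genes that the study listed as raised in Zmym2-/- embryos were taken by its own classes. Of 82 tested genes transcribed from an annotated promoter 18 were called higher and 4 lower, beside 6.86% higher and 5.42% lower over all genes, so that the lower share was near that over all genes. There were 10 higher without KO line 1 or without the replicate block, and 7 lower without NT line 1. DESeq2 called 8 higher and 3 lower, and limma on log2(RPKM + 0.1) 4 higher and 1 lower. The list had a median KO over NT difference of 0.93 in EBs and 0.60 in mESCs. Of 32 tested genes spliced from an L1MdT element 0 were called higher and 0 lower by edgeR. Among the 32, 8 had at most 3 counts in a group, which limits what their interaction can show. At an unadjusted p under 0.05 edgeR gave 1 higher and 0 lower, while DESeq2 called 0 and 0, and limma on log2(RPKM + 0.1) called 0 higher and 1 lower. Their median KO over NT difference was 2.35 in EBs and 2.44 in mESCs. Pla2g1b, a secreted phospholipase that the study listed under another transposon (chromosome 5, 115466262-115474722, plus strand), had 76.5 and 88.6 CPM in KO EBs and 96.5 and 99.8 CPM in KO mESCs, against 6.89 and 5.79 CPM in NT EBs and 19.3 and 13.8 CPM in NT mESCs (interaction 1.12 ± 0.13, edgeR adjusted p = 5.5e-08). It was high in KO lines at both stages, and fell less in them than in NT lines.

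Genes of the 2-cell-like state, which mark rare mESCs that resemble the embryo at that stage, differed by genotype at both stages. Of 23 tested, 21 were called higher in KO EBs and 23 in KO mESCs, beside 3.51% and 12.6% over all genes. Their interaction was called for 1 gene, Arg2, an arginase (-2.995 ± 0.60), which lost the call without the replicate block and with DESeq2. Its value was not stable, at -8.19 without NT line 1 and -1.98 without NT line 2. For the 23 genes limma on log2(RPKM + 0.1) called 0 higher and 2 lower. At an unadjusted p under 0.05 limma gave 0 higher and 8 lower. The 9 tested Zscan4 family genes, near-identical copies among which reads may be split, summed to 97.7 and 41.4 CPM in KO EBs and 119 and 42.0 CPM in KO mESCs, against 0.149 and 0.107 CPM in NT EBs and 0.343 and 0.447 CPM in NT mESCs. The NT values rest on at most 16 counts a library, which limits what the interaction can show, and KO line 1 was above KO line 2 at both stages. Zscan4f had 671 counts in the KO EB libraries and none in the NT EB libraries, at least 182-fold higher in KO EBs on a floor of 3 counts over the group. The 5 Usp17l family genes, also near-identical, summed to 48.0 and 25.1 CPM in KO EBs and 41.6 and 23.3 CPM in KO mESCs, against 0.149 and 0.295 CPM in NT EBs and 0.343 and 0.307 CPM in NT mESCs.

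Usp26, an X-linked deubiquitinase gene known from testis (chromosome X, 51753959-51801233, minus strand), had 38.4 and 27.9 CPM in KO EBs and 36.7 and 26.7 CPM in KO mESCs, against 0.0298 and 0.0537 CPM in NT EBs and 0.472 and 0.419 CPM in NT mESCs. In EBs this was 2971 counts in KO and 3 in NT libraries, a ratio of 805 (exact counting interval 275 to 3906), and its interaction was called (adjusted p = 1.1e-04). Ceacam1, a cell adhesion molecule, had 29 counts in KO EBs and none in NT EBs, at least 7.86-fold higher in KO EBs, and 4.49 and 4.63 CPM in KO mESCs, against 6.22 and 6.00 CPM in NT mESCs. Inpp5d, the SHIP1 phosphatase, and Got1l1, chosen after their values were seen, also stayed higher. Inpp5d had 26.6 and 26.9 CPM in KO EBs and 107 and 99.7 CPM in KO mESCs, against 2.83 and 2.42 CPM in NT EBs and 53.6 and 19.9 CPM in NT mESCs (interaction 1.76 ± 0.19). Its interaction ran from 1.11, without NT line 1, to 2.29 over the 4 omissions, and the call was lost with DESeq2 and limma. Got1l1 had 10.3 and 17.6 CPM in KO EBs and 25.1 and 33.6 CPM in KO mESCs, against 1.88 and 0.832 CPM in NT EBs and 13.46 and 9.15 CPM in NT mESCs (interaction 1.98 ± 0.22).

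The paralogues Scd1 and Scd2, which encode fatty acid desaturases, were among the 6 higher genes of smallest p. Scd2 had 500.4 and 511 CPM in KO EBs and 304 and 299.8 CPM in KO mESCs, against 294 and 331 CPM in NT EBs and 391 and 469 CPM in NT mESCs (interaction 1.201 ± 0.09, edgeR adjusted p = 4.1e-13). Scd1 had 86.8 and 94.3 CPM in KO EBs and 25.5 and 25.6 CPM in KO mESCs, against 83.7 and 94.5 CPM in NT EBs and 64.2 and 82.8 CPM in NT mESCs (interaction 1.54 ± 0.11, edgeR adjusted p = 3.3e-13). Scd2 crossed over between the genotypes and Scd1 met at day 3. Of 24 cholesterol synthesis genes 6 were called higher, beside 6.86% over all genes, or 3 without NT line 2 or without KO line 2 and 2 without the replicate block. Their median change was 0.84 in KO lines and 0.85 in NT lines, and 14 were lower in KO mESCs, beside 12.6% over all genes. Insig1, a sterol feedback regulator, had an interaction of 0.94 ± 0.11 and the reductase Dhcr7 one of 0.58 ± 0.11. Nfkb1, an NF-kappaB subunit, had 34.1 and 36.2 CPM in KO EBs and 28.4 and 30.0 CPM in KO mESCs, against 41.1 and 37.2 CPM in NT EBs and 93.5 and 93.2 CPM in NT mESCs (interaction 1.52 ± 0.12).

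Of 42 imprinted genes 10 were lower and 3 higher, beside 5.42% and 6.86% over all genes, so that the higher share was near that over all genes. There were 5 lower without NT line 2, 4 lower without the replicate block and 1 higher without KO line 1. The 10 included Snrpn (-0.85 ± 0.09), Peg3 (-0.85 ± 0.13) and Ndn (-0.74 ± 0.14), which rose in both genotypes from higher levels in KO mESCs. Of 21 interferon response genes 6 were lower, beside 5.42% over all genes, among them the factor Irf1 (-0.93 ± 0.12). There were 3 lower without NT line 2 and 2 without the replicate block. Of 28 unfolded protein and amino acid stress genes 6 were lower, beside the same share over all genes, or 3 without NT line 1 and 2 without the replicate block, among them Chac1 (-1.36 ± 0.13), a glutathione-degrading enzyme that fell further in KO lines. Among the partners of ZMYM2, 2 of 20 LSD1 and CoREST genes were higher and 1, Rcor2, was lower, near the shares over all genes, and these 3 calls were lost on leaving out any 1 line. Kdm1a, which encodes LSD1, was not called (0.20 ± 0.09, adjusted p = 0.14). Trim28 was called lower (-0.33 ± 0.08), a call lost without NT line 2 (-0.24, adjusted p = 0.20).

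Markers of other cell types were summed in each library. The 11 tested feeder and fibroblast markers of 17 summed to 125 and 121 CPM in KO EBs and 114 and 139.9 CPM in KO mESCs, against 157 and 126 CPM in NT EBs and 101 and 76.5 CPM in NT mESCs. Of the 11, 4 were called lower and 0 higher, beside 5.42% lower and 6.86% higher over all genes. The 4 included Thy1 (-1.58 ± 0.21) and Vim (-0.98 ± 0.11), which all 8 libraries expressed. The 9 tested trophoblast markers of 14 summed to 63.7 and 62.6 CPM in KO EBs and 73.1 and 58.6 CPM in KO mESCs, against 56.5 and 37.99 CPM in NT EBs and 57.0 and 53.8 CPM in NT mESCs. The 13 tested blood and endothelium markers of 19 summed to 32.9 and 31.6 CPM in KO EBs and 113 and 112 CPM in KO mESCs, against 27.3 and 25.1 CPM in NT EBs and 68.7 and 66.0 CPM in NT mESCs. Of this sum Pecam1, also expressed by mESCs, made 78.8 and 79.4 CPM in KO mESCs, against 43.6 and 42.0 CPM in NT mESCs. Of these markers, 1 blood and endothelium marker was at 0 in NT mESC line 2 and no other was at 0 in any library. The part of other cell types in the results was not tested.

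The 12 embryos gave the same genotypes in samples that the interaction did not use. In them 116 genes were higher (0.51% of 22729 tested) and 3 lower (0.0132%) in Zmym2-/- than in wild-type embryos. Of the genes with a higher interaction 1288 were in the embryo table and 15 (1.17%) were higher in Zmym2-/- embryos, and of those with a lower interaction 7 of 1004 (0.70%), beside 101 of all 17426 shared genes (0.58%). The 15 were 14.9% of the 101 and the 7 were 6.93%. Tex15 differed by 1.97 ± 0.19 on the log2 scale in embryos (KO over wild-type, edgeR adjusted p = 1.8e-04), M1ap by 3.61 ± 0.39, Ddx4 by 2.33 ± 0.35, Stra8 by 4.67 ± 0.74 and 8030474K03Rik by 3.05 ± 0.62. Among the 7, Gdf3 (3.24 ± 0.57 in embryos) and Galnt6 (1.73 ± 0.34), chosen after their values were seen, had interactions of -0.55 and -1.89. Otx2 (0.30 ± 0.20, adjusted p = 0.56) and Fgf5 (1.99 ± 0.71, adjusted p = 0.35) did not pass in embryos.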

How the data were processed

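RNA was sequenced from the 8 line libraries described above and from 12 embryos. In the processing by the authors, Trimmomatic (0.34) was used for trimming, STAR (2.7.8a) for alignment against mm10 and Picard (2.9.0) for marking duplicates, and genes were quantified with HTSeq-count and StringTie (1.3.5). They deposited raw counts per gene beside a normalized score (the count divided by a library factor and rounded), in separate mESC (20159 genes), EB (20142 genes) and embryo tables. The deposited RPKM of the lines served as an alternative only, and the score was not used, since each table was scaled on its own. The line tables were joined by Ensembl ID, and the minimum of 10 summed counts removed no gene. Genes held by 1 line table alone (1233 and 1216) entered no interaction.

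edgeR 4.0.16 (R 4.3.3) with TMM scaling fitted a term for each line, the EB change in NT lines and the extra EB change in KO lines, with 2 residual degrees of freedom and a prior of 35.9 from all genes. Genotype differences at a stage came from the 4 group means without the block. The labels number the samples 1 and 2 at both stages, and a number was taken as a clonal line. The difference between samples 1 and 2 correlated between stages at 0.39 in KO and 0.13 in NT lines over 13756 genes. The p-values of the interaction rest on the spread left after the line terms, moderated by the prior from all genes. They do not measure lasting differences between clones. The p-values of the genotype differences, fitted without the block, rest on the spread between the libraries of a group, moderated likewise. Intervals and floors cover counting error only.

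Named genes were Zmym2, those the study followed, in each direction the 12 largest called interactions with at least 5 CPM in a group and separated lines, the 6 of smallest p likewise, and up to 4 of each list by p. The members and the 41 lists were chosen with earlier results of these data known, 4 of the lists being the study's own. Gene coordinates are GENCODE M21 and promoters RefSeq (GRCm38.p6). The fit was also run on simulated counts without differences between lines, so that run cannot test how the fit handles such differences. limma 3.58.1 and DESeq2 1.42.0, other scalings and filters, and omission of each line were tried as alternatives. Some genes that the rule names are not reported here.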

Additional observations from a re-analysis of the deposited data

Results flagged for a closer look

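The interaction itself was flagged as a difference between the KO and NT lines under the same contrast, for 1299 genes with a higher and 1026 with a lower value. Among the named genes 20 changed in opposite directions in KO and NT lines with both changes called. Those that fell in KO lines and rose in NT lines were Hoxb5 (interaction -4.84), Hoxb1 (-4.36), Hoxb4 (-3.65), En1 (-3.37), Epha4 (-2.78), Sorcs2 (-2.54), Ccno (-2.46), Pax6 (-2.46), the Notch pathway genes Lfng (-1.60) and Dll1 (-1.43), Vim (-0.98) and Zfp281 (-0.76). Those that rose in KO lines and fell in NT lines were Insig1 (0.94), Perp (0.94), Ddx4 (1.13), Scd2 (1.201), Tex15 (1.47), Nfkb1 (1.52), Sp5 (1.95) and Cpe (3.12). Groups of 2 lines are too small to flag a single library.

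Genes held by 1 line table only were outside the comparison. Gm14267 had 274 counts in KO and 21 in NT mESCs, and Sox14 had 290 counts in KO and 109 in NT EBs. Others ran the opposite way, such as Nkx6-3 with 13 counts in KO and 558 in NT mESCs and Lrrc31 with 106 in KO and 488 in NT mESCs. An edgeR fit of all 2449 such genes, with 0 entered for the stage whose table lacked them, called 0 of them, and 0 had an unadjusted p under 0.05. The lowest sum of a gene in either line table was 10 counts, so a missing gene need not have had 0 counts. The fit could not call any, since 0 entered at 1 stage in both genotypes leaves the interaction without an estimate. The 0 calls thus say nothing about these genes.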

How the results depend on the processing

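The direction of the interaction held for most named genes, and the counts of calls did not hold. Most named genes were chosen by their interaction in these same libraries, many with separated lines. A kept direction was thus largely set by that choice and is no measure of robustness. Without the replicate block 581 genes were higher and 412 lower, all among the 2325. With DESeq2's Wald test there were 614 higher and 530 lower, with limma on log2(RPKM + 0.1) 155 and 158, and with limma on log2(RPKM + 1) 188 and 224, so that the higher share of calls was 45.6% there and 47.4% with upper-quartile scaling, against 55.9% in the main fit. At 2-fold or more there were 371 higher and 337 lower. Leaving out 1 line at a time gave 772 to 1169 higher and 580 to 821 lower. DESeq2 size factors, upper-quartile scaling, filterByExpr, no filter and the genes of either table kept both counts within 1.5 times. On the 4 EB libraries alone 535 genes were lower in KO EBs, against 291 in the fit of all 8 libraries. Of 147 called named genes 106 kept their call without the block, 120 with DESeq2 and 74 and 64 with limma. Reversed values came from limma: Fgf1 (-0.32), Pecam1 (-0.23), Mlana (-0.064) and Gm29793 (-0.20) with a pseudocount of 1, and Gm21761 with 0.1 (-0.55) and 1 (-0.89). The cause was not tested. Of 2449 genes of 1 table only, fitted by edgeR with 0 entered at the other stage, 0 were called higher and 0 lower. None had an unadjusted p under 0.05 in either direction. As said above, that fit could not call such genes. NT levels of at most 3 counts limit the 2-cell-like genes.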

Other observations

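The lines of 1 genotype could differ widely. Myl9, a myosin light chain chosen after its values were seen, had 21.6 and 20.2 CPM in KO EBs and 25.9 and 28.1 CPM in KO mESCs, against 17.5 and 102 CPM in NT EBs and 4.83 and 53.8 CPM in NT mESCs. Its interaction of -1.64 lost its call without the replicate block.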
